A study of Mus musculus with 16 samples.

Results

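The chromatin around Gadd45a was described in mouse liver by DNase-seq, which sequences the short fragments that DNase I releases from accessible chromatin. Peaks of 16 lists that overlapped were merged, and the 26 merged regions that overlapped a 240-kb window on chromosome 6, 66900000 to 67140000 in the mm9 build, are the regions described, of 61240 in all. The window was chosen from measured values, since TCPOBOP had changed the summit pileup of a region inside it in these same pools. The differences between TCPOBOP and vehicle are therefore given as a description. An adjusted p-value serves below only to mark regions as called, and it is not printed for these differences.

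Livers came from CD-1 mice that were male or female and 7 weeks old. They were taken 3 h or 27 h after intraperitoneal TCPOBOP at 3 mg/kg or after its vehicle, 1% DMSO in corn oil, which makes 8 groups of 2 pools. Each pool combined DNA of 3 to 5 livers, so a pool shows no single mouse, and whole-liver nuclei hold all liver cell types. Each sex and time formed an experiment of its own with its own vehicle, so a difference between sexes or times cannot be told apart from a difference between experiments. Pool numbers 1 and 2 are given in the labels with no mention of shared mice, days or batches. The spread between the 2 pools of a group is the only replicate error here, and the SE given below takes it from all 8 groups together.

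Gadd45a encodes a small nuclear protein that is made when cells stop growing or meet DNA damage. It is a known target of p53, binds PCNA and the cell-cycle inhibitor p21, and activates the kinase MEKK4 upstream of the stress kinases p38 and JNK. TCPOBOP is an agonist of the mouse constitutive androstane receptor (CAR), a nuclear receptor of hepatocytes. CAR pairs with RXR and binds direct repeats of a short core motif. Gadd45b, a relative of Gadd45a, is a known early target of CAR in mouse liver.

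In RefSeq's annotation of another build, GRCm38.p6, Gadd45a lies between Gng12, which encodes a G protein gamma subunit, and Serbp1, which encodes an mRNA-binding protein. The only protein-coding gene listed between Gng12 and Serbp1 is Gadd45a; the others are 5 lncRNA genes and 3 pseudogenes. No annotation of mm9 was used, so no region could be placed on the start of Gadd45a or assigned to a gene, and no marker check of the tissue was made. Regions are named here by the distance in kb of their centre from that of the region with the largest mean effect, called the lead region; negative distances lie at lower coordinates.

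The promoter of Gadd45a is shown because it is the gene the window is named for, and not because a peak was placed on it. The 250 bases before its start, on the minus strand of chromosome 6 in RefSeq's GRCm38.p6 table, are printed in lower case, with the letters searched for in capitals.

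Gadd45a promoter: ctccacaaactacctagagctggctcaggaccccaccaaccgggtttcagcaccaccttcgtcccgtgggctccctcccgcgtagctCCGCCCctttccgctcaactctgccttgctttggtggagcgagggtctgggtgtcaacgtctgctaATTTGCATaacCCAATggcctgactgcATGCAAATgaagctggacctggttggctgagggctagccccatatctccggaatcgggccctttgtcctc

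Letters were searched on both strands, and no match overlaps another. The octamer ATGCAAAT occurs at 2 places, 97 to 90 and 70 to 63 bases before the start, the farther one as its reverse complement ATTTGCAT. At least 1 octamer stands in 1.6% of 32851 promoters of this length, and at least 2 in 0.0974%. The CCAAT box (CCAAT) occurs once between them, at 86 to 82 bases, and stands in 33.8% of promoters. In human GADD45A, the octamer and CCAAT letters are known binding sites of Oct-1 and NF-Y. The GC box (GGGCGG) occurs once as CCGCCC, at 163 to 158 bases, against 32.7% of promoters. The nuclear receptor core motif AGGTCA, present in 14% of promoters, and the TATA box TATAAA, present in 12.4%, have no match in these letters. A direct repeat of AGGTCA spaced by 4 bases has none either, against 0.0152% of promoters. A match is a run of letters and not a bound site.

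The peaks near Gadd45a were mostly listed both with and without TCPOBOP. Of the 26 regions, 10 had a peak in all 16 lists (38.5%, against 30.1% of all regions), 13 in 2 to 15 lists and 3 in 1 list. They were 200 to 2468 bp wide, with a median of 741.5 bp. The longest stretch with no peak in any list was 51.1 kb, between 66987898 and 67038987, and it separated 14 regions on its left from 12 on its right. Male livers at 3 h had peaks at 16 and 15 regions after TCPOBOP and at 13 and 12 after vehicle. Female livers at 3 h had peaks at 17 and 17 regions after TCPOBOP and at 16 and 15 after vehicle. Male livers at 27 h had peaks at 19 and 21 regions after TCPOBOP and at 18 and 18 after vehicle. Female livers at 27 h had peaks at 19 and 23 regions after TCPOBOP and at 16 and 15 after vehicle. The libraries held 15679689 to 43618254 tags, and deeper libraries list weaker peaks. At 3 h the TCPOBOP libraries, with 18543171 to 25383943 tags, were all deeper than the vehicle libraries, with 15679689 to 17206999 tags. At 27 h the depths of the treatments overlapped in either sex.

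**Figure D1:**
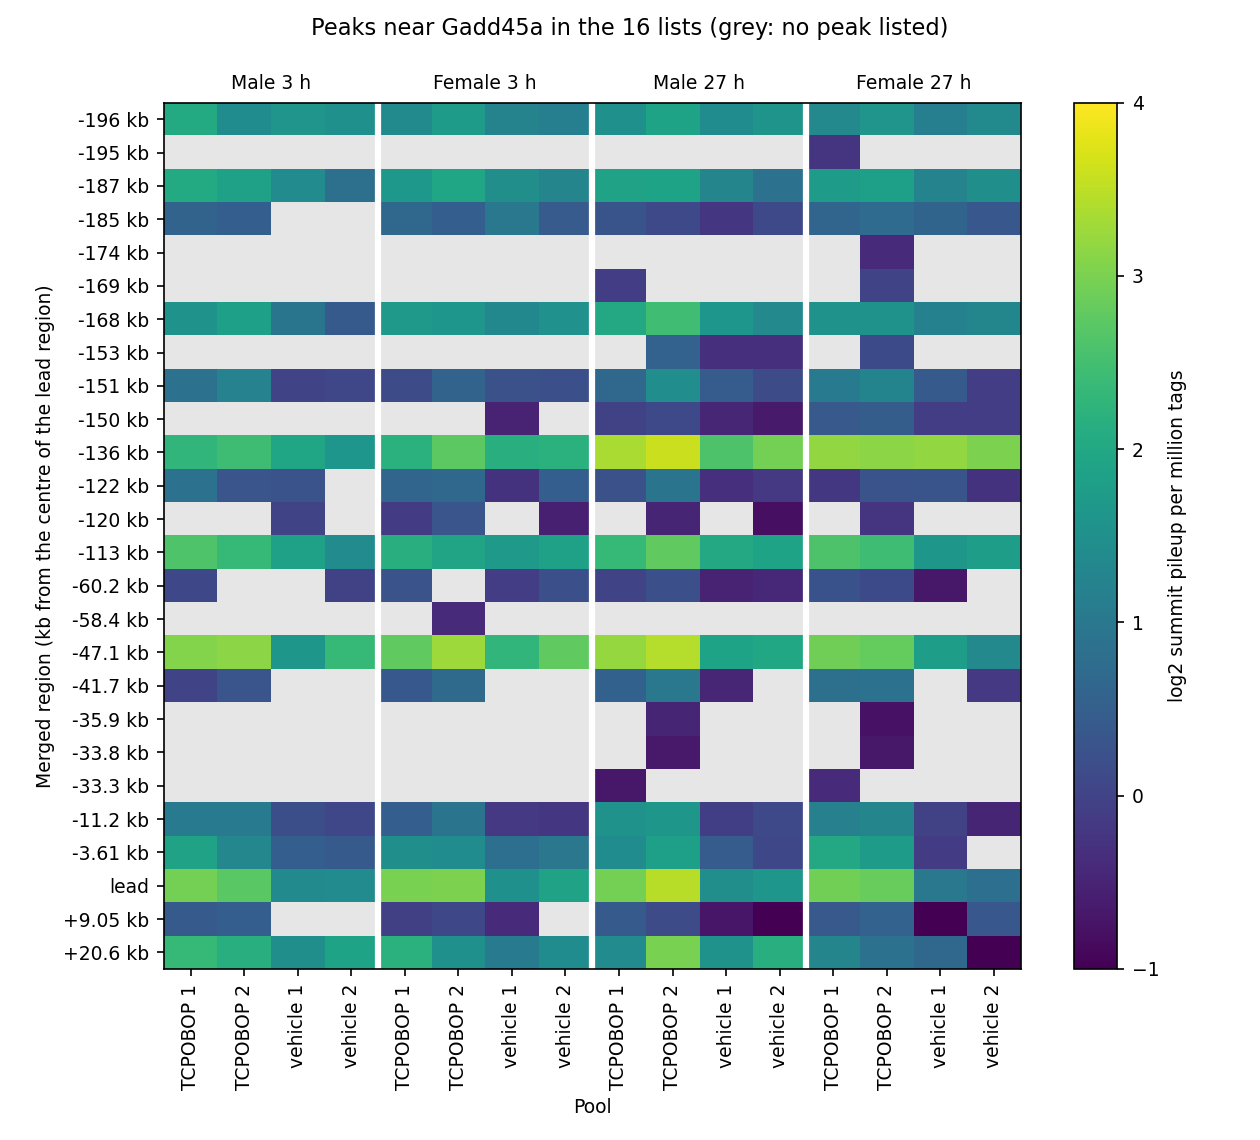
Log2 summit pileup per 1000000 tags (colour) of the 26 merged regions (rows, named by kb from the lead region) in each of the 16 pools (columns), with TCPOBOP pools left of vehicle pools in each experiment. Grey cells are pools whose list holds no peak there: 10 rows have none, and 7 rows are grey in every vehicle pool.

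Numbers in the authors' peak names run without a gap through the window in all 16 lists, although 1.12% to 1.62% of the numbers are absent over each whole list. A region was counted as gained where both TCPOBOP pools of an experiment had a peak and neither vehicle pool did, and as lost for the reverse. In males at 3 h, 3 regions near Gadd45a were gained, of 17 with a peak, against 4.93% of all such regions. In females at 3 h 1 of 19 was gained, against 4.05%. At 27 h 0 of 23 and 0 of 25 were gained in males and females, against 2.22% and 6.04%. None was lost in any experiment, against 0.474%, 1.01%, 2.31% and 1.26% of all regions in male 3 h, female 3 h, male 27 h and female 27 h livers. Leaving out 1 pool changes these counts (1 to 6 gained in female 27 h livers). With the lists cut to equal length, the 3 h counts were 2 for male and 2 for female livers. Over the whole design, 7 of the 26 regions had no peak in any vehicle list, against 15.2% of all regions, and 0 had no peak in any TCPOBOP list, against 9.18%.

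The gained regions were weak ones. The region at 67057591 to 67058685, −41.7 kb, had pileups per 1000000 tags of 1.02 and 1.24 in male 3 h TCPOBOP pools and 1.30 and 1.65 in female 3 h TCPOBOP pools, with no peak in the vehicle pools of either. At 27 h it had 1.47 and 1.99 after TCPOBOP against 0.726 in 1 vehicle pool in males, and 1.79 and 1.85 against 0.887 in 1 vehicle pool in females. It was thus listed in all 8 TCPOBOP pools and in 2 of the 8 vehicle pools. The region at 67108515 to 67109229, 9.05 kb, had 1.34 and 1.40 after TCPOBOP in males at 3 h and no vehicle peak, and 0.966 and 1.05 against 0.767 in 1 vehicle pool in females at 3 h. At 27 h it had 1.33 and 1.10 after TCPOBOP against 0.614 and 0.504 after vehicle in males, and 1.32 and 1.48 against 0.454 and 1.27 in females. Its TCPOBOP pools were above its vehicle pools throughout, by a small margin in females at 27 h, where the groups overlapped once centred. In females at 27 h it was called higher without vehicle pool 2 (log2 1.55) and not with it. The region at 66914058 to 66914648, −185 kb, was gained in males at 3 h with 1.50 and 1.40 after TCPOBOP, but some vehicle pools of other experiments were as strong. It had 1.59 and 1.40 after TCPOBOP against 2.01 and 1.36 after vehicle in female 3 h pools, 1.22 and 1.08 against 0.865 and 1.08 in male 27 h pools, and 1.56 and 1.68 against 1.54 and 1.27 in female 27 h pools.

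The signal was compared as the log2 of the summit pileup, which is how many extended tags cover a summit, per 1000000 tags of the library. It was centred in each pool on the regions present in all lists, and log2 differences and counts of groups that do not overlap use the centred values. A region was tested where all 4 pools of an experiment had a peak. It was called where limma's adjusted p over all tested regions was under 0.05. All 8 groups entered the same fit and shared a single estimate of the spread per region. The SE of a region's difference between TCPOBOP and vehicle is therefore the same in every experiment. It is not the error of the pools of that experiment alone. Of the 26 regions, 16 were tested in at least 1 experiment and 10 in all 4. The other 10 had 25 peaks in TCPOBOP lists and 7 in vehicle lists, all with pileups of 0.573 to 1.99 on this scale. The −41.7 kb region, with a peak in every TCPOBOP pool, is among them. No such split was counted over all untested regions, so nothing is read from it.

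After TCPOBOP the mean signal near Gadd45a was higher at most tested regions. In bulk liver, more accessible chromatin per cell and more cells with accessible chromatin cannot be told apart. The log2 difference, TCPOBOP minus vehicle, was positive in 50 of 54 comparisons of a region in an experiment. Its median was 0.75 over 11 regions in male 3 h livers, 0.43 over 13 in female 3 h livers, 0.63 over 16 in male 27 h livers and 0.58 over 14 in female 27 h livers. Over all tested regions the median was −0.03, −0.03, −0.01 and −0.05 in the same order. Both TCPOBOP pools were above both vehicle pools at 10 of 11 regions in male 3 h livers, against 17.7% of all tested regions. The counts were 11 of 13 against 17% in female 3 h livers, 13 of 16 against 20.4% in male 27 h livers, and 9 of 14 against 20.8% in female 27 h livers.

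Fewer regions passed the threshold. At 3 h, 2 regions were called higher in males, where 0.402% of all tested regions were, and 1 in females, where 0.846% were. At 27 h, 4 were called higher in males, against 1.31%, and 5 in females, against 3.17%. None was called lower in any experiment, against 0.0655% and 0.0657% of regions in males and females at 3 h and 0.226% and 2.18% at 27 h. Since the window was chosen with these contrasts known, the shares are set side by side and nothing is read from them. In all, 6 regions were called in at least 1 experiment. Of them 4, counting the lead region itself, lie right of the 51.1-kb gap and within 47.1 kb of the lead region. The other 2 lie left of the gap. The lead region alone was called in all 4 experiments.

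**Figure D2:**
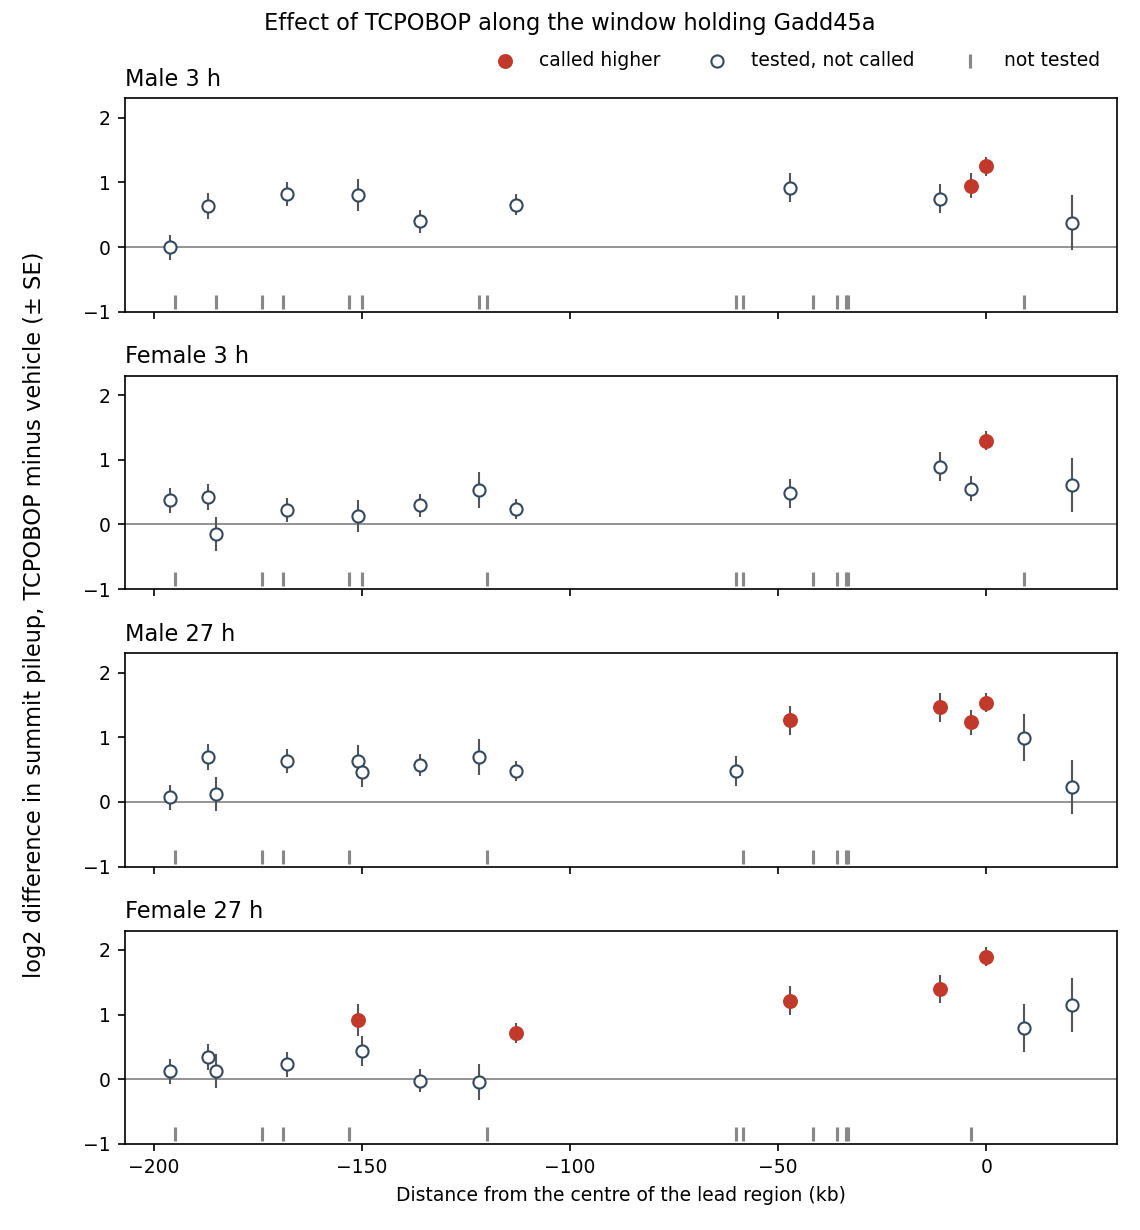
Log2 difference in summit pileup, TCPOBOP minus vehicle (points, bars ± SE of the limma fit, 2 pools per group), against the distance in kb from the lead region, 1 panel per experiment. Filled points were called higher and ticks at the bottom mark regions not tested; the lead region at 0 kb has the highest point in each panel, 1.25, 1.30, 1.53 and 1.89.

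The lead region, 67099388 to 67100258, had a peak in every vehicle pool and more signal after TCPOBOP in both sexes and at both times. In male livers at 3 h its pileup per 1000000 tags was 7.80 and 6.58 after TCPOBOP, against 2.62 and 2.67 after vehicle. In female livers at 3 h it was 7.92 and 8.07 after TCPOBOP, against 2.83 and 3.70 after vehicle. Every TCPOBOP pool lay above every vehicle pool at 3 h, in either sex. In male livers at 27 h it was 7.75 and 11.0 after TCPOBOP, against 2.76 and 3.07 after vehicle. In female livers at 27 h it was 7.66 and 7.12 after TCPOBOP, against 1.99 and 1.77 after vehicle. The lowest of the 8 TCPOBOP values was thus above the highest of the 8 vehicle values. At 3 h the log2 difference was 1.25 ± 0.15 (2.38-fold) for males and 1.30 ± 0.15 (2.46-fold) for females, and at 27 h it was 1.53 ± 0.15 (2.90-fold) for males and 1.89 ± 0.15 (3.71-fold) for females (SE, n = 2 pools per group). Since this region was picked as the largest effect in a window chosen on these values, they describe it and support nothing. The summits of the 16 pools lay within 98 bp of each other.

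The gain at the lead region was not limited to its summit. MACS2 without a control divides the summit pileup by a local background taken over 10 kb, so the number of tags within 10 kb was recovered from the deposited fold enrichment. Tags within 10 kb of the summit, per 1000000 tags, were 31.2 and 25.6 after TCPOBOP against 12.4 and 12.3 after vehicle in male 3 h livers. They were 27.3 and 30.7 against 12.3 and 14.1 in female 3 h livers, 35.9 and 43.0 against 12.5 and 13.1 in male 27 h livers, and 47.2 and 44.2 against 10.5 and 11.5 in female 27 h livers. The ratios of the means were 2.3, 2.2, 3.08 and 4.16 in that order, without centring. The fold changes in pileup of 2.38, 2.46, 2.90 and 3.71 are of centred values, so they are not on the same scale. Before centring, the mean pileups were 7.19 against 2.64, 8.00 against 3.27, 9.36 against 2.92 and 7.39 against 1.88. The 200 bp at the summit held 25% and 25.7% of the tags within 10 kb in male 3 h TCPOBOP pools, against 21.03% and 21.8% in vehicle pools. In female 3 h pools they held 29.0% and 26.3% after TCPOBOP, against 23.1% and 26.2% after vehicle. They held 16.2% and 16.1% in female 27 h TCPOBOP pools, against 19.0% and 15.4% in vehicle pools. In male 27 h pools they held 21.6% and 25.5% after TCPOBOP, against 22.1% and 23.5% after vehicle. The shares did not overlap between treatments at 3 h, with a narrow margin in females, and overlapped at 27 h.

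The authors' fold enrichment of the lead region therefore changed less than its pileup. It was 11.8 and 11.7 after TCPOBOP against 8.57 and 9.004 after vehicle in male 3 h pools, and 13.4 and 12.2 against 9.50 and 10.9 in female 3 h pools. It was 10.3 and 12.4 against 10.02 and 10.9 in male 27 h pools, and 7.82 and 7.79 against 8.29 and 6.39 in female 27 h pools. The groups did not overlap at 3 h and overlapped at 27 h. With fold enrichment in place of pileup, the log2 difference at the lead region was 0.29 for either sex at 3 h. At 27 h it was 0.07 for male and 0.05 for female livers. No region near Gadd45a was then called in any experiment. Few were called over all regions: 11 of 22908 higher in male 3 h livers and 16 of 22825 in female 3 h livers. At 27 h these were 71 of 31915 in males and 40 of 25502 in females. Nothing is therefore read from the absence of calls near Gadd45a.

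**Figure D3:**
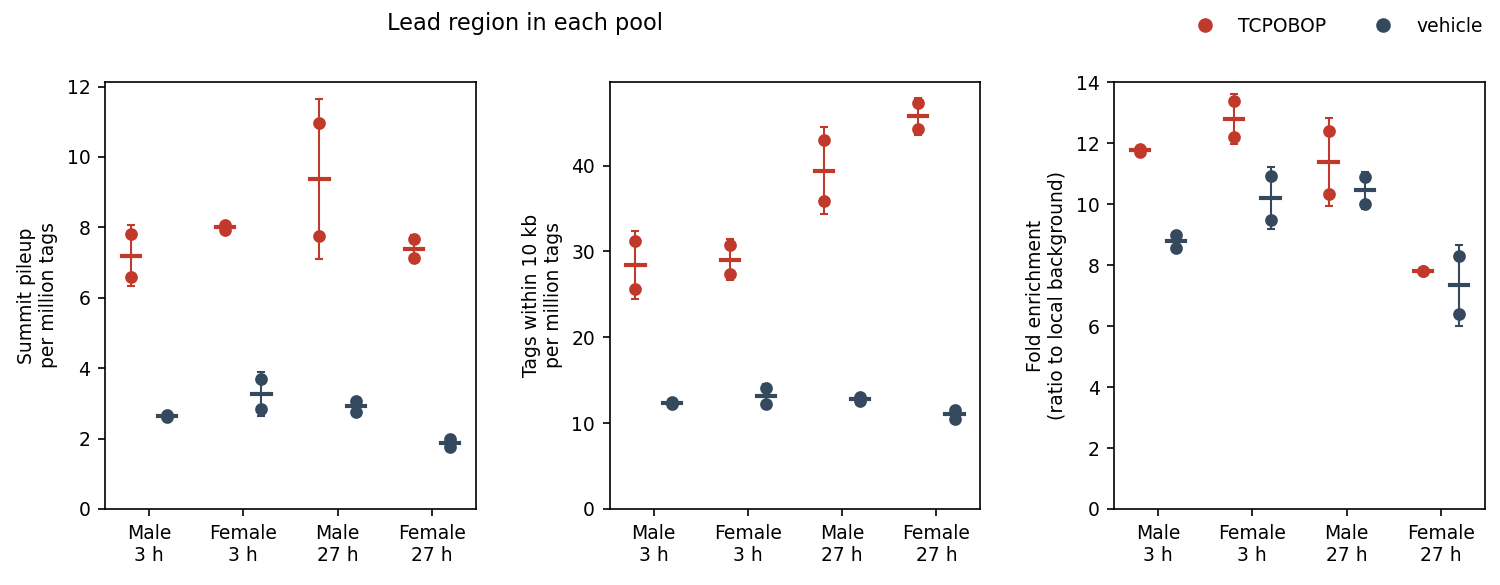
Summit pileup per 1000000 tags (left), tags within 10 kb of the summit per 1000000 tags (middle) and the authors' fold enrichment, a ratio to the local background (right), of the lead region. Points are pools, lines are means and bars are ± SD of 2 pools. Pileup and 10-kb tags of TCPOBOP pools lie above those of all vehicle pools, while fold enrichment overlaps at 27 h.

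Tags within 10 kb were higher after TCPOBOP at most other regions as well. Before centring, both TCPOBOP pools had more scaled tags within 10 kb than both vehicle pools at 11 of 11 regions in male 3 h livers, against 37.4% of all regions with these values. The counts were 11 of 13 against 20.7% in female 3 h livers, 14 of 15 against 23.2% in male 27 h livers, and 11 of 12 against 34.1% in female 27 h livers. The median log2 ratio was 0.54, 0.35, 0.59 and 0.56 over these regions and 0.11, 0.005, 0.04 and 0.03 over all regions, in the order male 3 h, female 3 h, male 27 h and female 27 h. Neighbouring regions share tags where their 10-kb spans overlap, so these counts are not independent.

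Nearest the lead region was the region at 67095959 to 67096462, −3.61 kb, whose 10-kb span overlaps that of the lead region. It had a scaled pileup of 3.66 and 2.48 after TCPOBOP against 1.40 and 1.34 after vehicle in male 3 h pools, and 2.80 and 2.71 against 1.77 and 1.97 in female 3 h pools. At 27 h it had 2.69 and 3.54 against 1.37 and 1.055 in males, and 4.07 and 3.40 against 0.908 in 1 vehicle pool in females, where the other vehicle pool had no peak. TCPOBOP pools were above vehicle pools in every experiment. The log2 difference was 0.95 ± 0.19 in male 3 h livers, 0.55 ± 0.19 in female 3 h livers and 1.23 ± 0.19 in male 27 h livers. It was called higher in males at both times and was not tested in females at 27 h. Its fold enrichment was higher after TCPOBOP in male 3 h pools, 5.62 and 4.64 against 4.42 and 4.49. In female 3 h pools it was lower, 4.93 and 4.30 against 5.805 and 5.851, and in male 27 h pools the groups overlapped. The male 3 h call was lost without TCPOBOP pool 1, vehicle pool 1 or vehicle pool 2 (log2 0.76, 0.92 and 0.98), and the male 27 h call without vehicle pool 2 (1.06).

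The region at 67088159 to 67088988, −11.2 kb, was weak in vehicle livers and showed its larger differences at 27 h. It had 2.09 and 2.103 after TCPOBOP against 1.15 and 1.05 after vehicle in male 3 h pools, and 1.40 and 1.91 against 0.885 and 0.863 in female 3 h pools. It had 2.97 and 3.12 against 0.949 and 1.08 in male 27 h pools, and 2.27 and 2.41 against 0.978 and 0.720 in female 27 h pools. The groups did not overlap in any experiment. The log2 differences at 3 h were 0.75 ± 0.22 in males and 0.90 ± 0.22 in females, which were not called. At 27 h they were 1.46 ± 0.22 in males and 1.40 ± 0.22 in females, which were called higher. Mean fold enrichment at 3 h was 8.98 after TCPOBOP against 6.09 after vehicle in males, and 8.38 against 4.92 in females. At 27 h it was 10.2 against 6.33 in males and 8.16 against 5.34 in females. Fold enrichment of the groups did not overlap in any experiment, although it gave no call.

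The region at 67052245 to 67053203, −47.1 kb, had the highest mean pileup of those right of the gap in each vehicle group. It had 8.43 and 8.79 after TCPOBOP against 3.12 and 5.11 after vehicle in male 3 h pools, and 6.86 and 9.62 against 4.90 and 6.84 in female 3 h pools. It had 9.22 and 10.9 against 3.74 and 3.94 in male 27 h pools, and 7.50 and 7.09 against 3.46 and 2.55 in female 27 h pools. The female 3 h groups nearly touched, and the 27 h groups stood well apart. The log2 differences at 3 h were 0.92 ± 0.22 for males and 0.48 ± 0.22 for females, not called. At 27 h they were 1.26 ± 0.22 for males and 1.21 ± 0.22 for females, called higher. The male 3 h difference depended on the vehicle pools: it was 0.50 without vehicle pool 1, and 1.34, called higher, without vehicle pool 2. The male 27 h call was lost without TCPOBOP pool 1 or vehicle pool 1 (1.19 and 1.21).

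Left of the gap, 2 regions were called, both in females at 27 h alone. The region at 66985431 to 66987898, −113 kb, was the widest of the 26 and held several peaks in 12 lists. It had 6.18 and 5.07 after TCPOBOP against 3.63 and 2.67 after vehicle in male 3 h pools, and 4.44 and 3.76 against 3.25 and 3.64 in female 3 h pools. It had 5.06 and 6.88 against 4.05 and 3.74 in male 27 h pools, and 6.10 and 5.44 against 3.14 and 3.49 in female 27 h pools. TCPOBOP pools were above vehicle pools in each experiment, by little in females at 3 h. The log2 differences were 0.66, 0.24, 0.47 and 0.72, each ± 0.16, in that order.

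The region at 66948477 to 66949457, −151 kb, was weaker. It had 1.81 and 2.32 after TCPOBOP against 1.02 and 1.05 after vehicle in male 3 h pools, and 1.11 and 1.50 against 1.18 and 1.17 in female 3 h pools. It had 1.61 and 2.74 against 1.37 and 1.12 in male 27 h pools, and 2.11 and 2.37 against 1.33 and 0.942 in female 27 h pools. The groups overlapped in females at 3 h only. The log2 differences were 0.80, 0.13, 0.63 and 0.92, each ± 0.25, in that order. The female 27 h call of the −151 kb region was lost without any 1 of its 4 pools (log2 0.68 to 1.15), and that of the −113 kb region without either TCPOBOP pool or vehicle pool 1 (0.63 to 0.76).

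**Figure D4:**
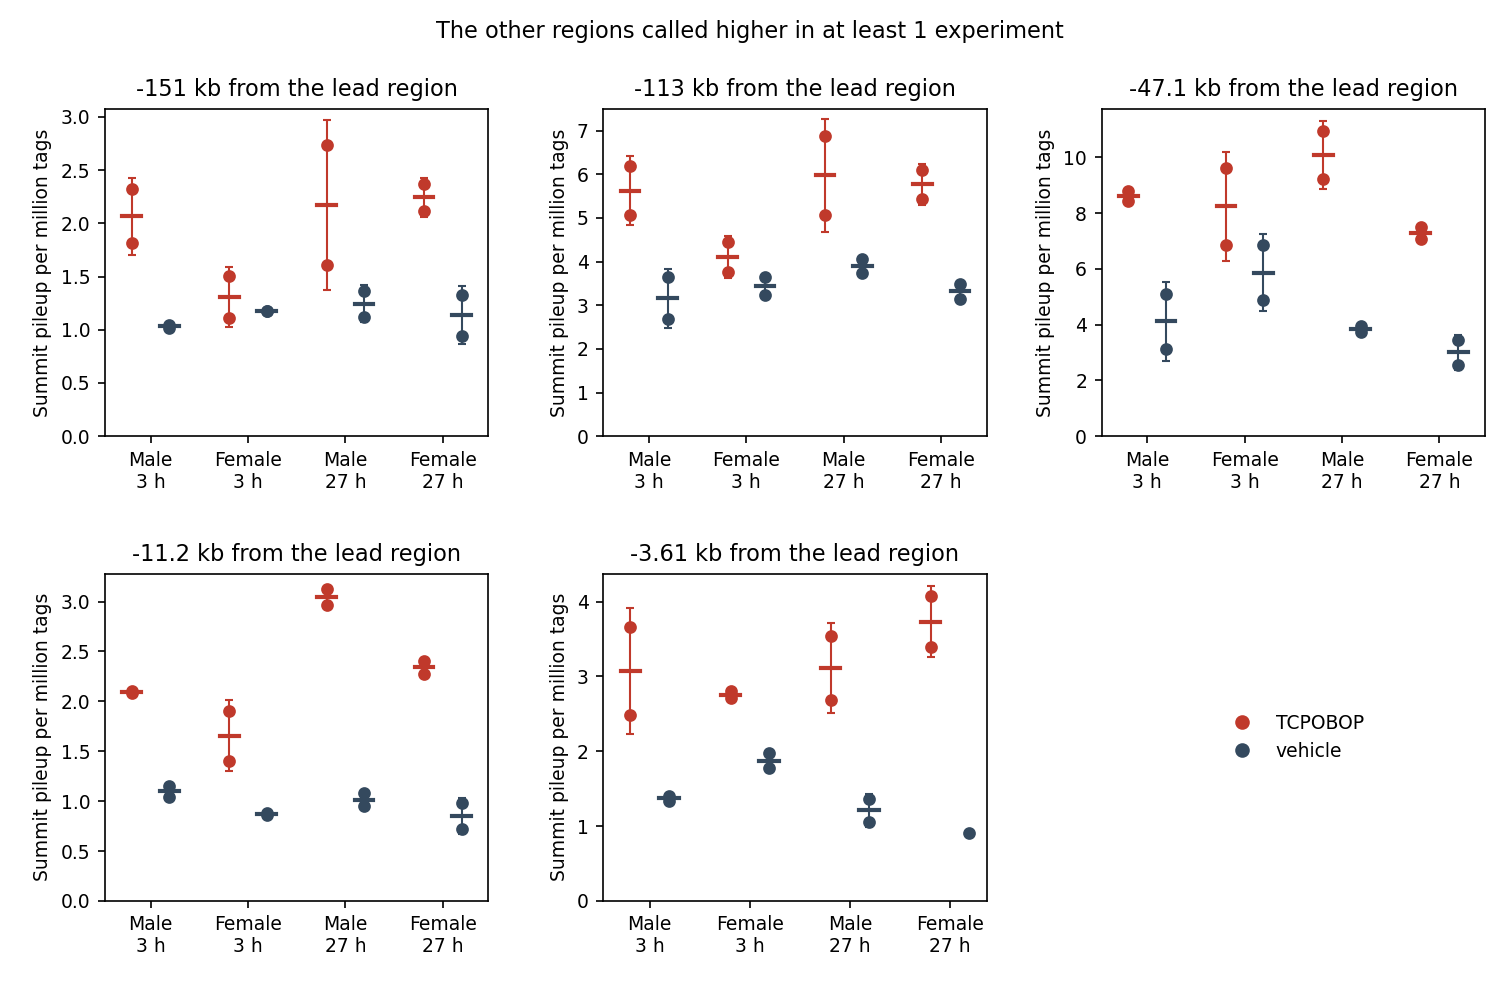
Summit pileup per 1000000 tags in every pool of the 5 other regions called higher in at least 1 experiment, titled by their kb from the lead region. Points are pools, lines are means and bars are ± SD of 2 pools; the region at −3.61 kb has 1 vehicle value in female 27 h livers because the other pool had no peak.

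The 10 tested regions that were never called spanned log2 differences of −0.15 to 1.15. The region at 66963251 to 66965212, −136 kb, had the highest signal of the 26, a scaled pileup of 12.1 in a male 27 h TCPOBOP pool. It averaged 11.2 ± 1.26 after TCPOBOP against 6.90 ± 1.20 after vehicle in male 27 h livers (SD, n = 2), and 8.94 ± 0.336 against 8.59 ± 0.790 in female 27 h livers. Its log2 differences were 0.57 ± 0.18 in males and −0.02 ± 0.18 in females at 27 h, and the difference in females was smaller than its error. The last region before the right edge of the window, 67119906 to 67120935 at 20.6 kb, varied most between pools. It had 2.65 and 8.01 after TCPOBOP against 2.93 and 4.40 after vehicle in male 27 h pools, and 2.43 and 1.81 against 1.61 and 0.499 in female 27 h pools. Its log2 differences of 0.23 ± 0.42 and 1.15 ± 0.42 had the largest standard errors of the tested regions. In females at 27 h it was called higher without vehicle pool 1 (log2 1.98). In males at 3 h the −168 kb region was called higher without vehicle pool 1 (log2 1.01).

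The values at the edges of the window are given with no test. The first region inside the left edge, 66903653 to 66904725, had log2 differences of −0.003, 0.38, 0.07 and 0.12, each ± 0.19, in male 3 h, female 3 h, male 27 h and female 27 h livers. The nearest region outside that edge lay 4.7 kb away, was listed in 8 lists and had −0.14 ± 0.24 in male 27 h livers, where alone it was tested. The last region inside the right edge, at 20.6 kb, had 0.38, 0.61, 0.23 and 1.15, each ± 0.42, in male 3 h, female 3 h, male 27 h and female 27 h livers. Outside the right edge the nearest region lay 53.8 kb away and had 0.18, −0.05 and 0.09, each ± 0.23, in male 3 h, female 3 h and male 27 h livers.

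The effects were also compared between sexes and times. These differences of effect are built from the same values that the choice of the window used, and many share pools. They are therefore given as a description. None of the 48 over these regions was called by limma after adjustment over all tested regions. An unadjusted p under 0.05 was seen for 7, with no share over all regions at that threshold beside it, and nothing is read from that count. Of all regions, 0% and 0.00413% were called for sex at 3 h and 27 h, and 0% and 0.0648% for time in males and females. At the lead region the effect at 27 h minus that at 3 h was 0.59 ± 0.21 in females and 0.28 ± 0.21 in males. The female minus male effect was 0.05 ± 0.21 at 3 h and 0.36 ± 0.21 at 27 h. Larger values at 27 h than at 3 h were thus seen at the lead, −11.2 kb and −47.1 kb regions in both sexes without being called. The lack of calls does not show that the effects were alike.

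Between vehicle livers of the 2 sexes, 2 regions near Gadd45a were called different, each at 1 time only, beside the lead region. Sex and experiment cannot be told apart in this comparison. The choice of the window did not use this comparison, although the same vehicle pools entered the contrasts that it used. At 3 h the region at 66931377 to 66932262, −168 kb, was higher in females, with scaled pileups of 2.54 and 2.90 in female pools against 1.91 and 1.34 in male pools (log2 0.74 ± 0.19, limma adjusted p = 0.0338). This was 1 of 11 regions, against 2% of all tested regions called higher in females and 2.05% called lower. The −168 kb region had a log2 difference of −0.07 ± 0.19 at 27 h, not called, and without centring it was not called at 3 h either. At 27 h the region at 20.6 kb was lower in females, with 1.61 and 0.499 in females against 2.93 and 4.40 in males (log2 −1.83 ± 0.42, limma adjusted p = 0.00892). Its value of 0.499 was a pileup of 9, where the lowest in that list was 8. At 3 h the 20.6 kb region had a log2 difference of −0.47 ± 0.42, not called. The lead region had 1.99 and 1.77 in females at 27 h against 2.76 and 3.07 in males (log2 −0.46 ± 0.15). The lead region was picked with these same vehicle values in its contrasts, so its difference is a description with no test. With it, 2 of 14 regions passed the threshold at 27 h, against 6.1% of all tested regions called lower in females and 7.25% called higher. The balance of all regions turned with the scaling: 1898 were higher and 1597 lower in females at 27 h, against 650 and 2345 without centring. At 3 h it was 421 higher and 431 lower, against 622 and 1057 when centred on the 5000 highest regions. Leaving out 1 of the 4 pools ended the call of the −168 kb region for 3 pools (adjusted p 0.118 to 0.182) and that of the 20.6 kb region for the second pool of either sex (0.0926 and 0.185). At 3 h the female minus male log2 difference at the lead region was 0.27 ± 0.15. The −47.1 kb region at 3 h was called higher in females without male pool 2 (log2 0.93), and the 9.05 kb region at 27 h without female pool 1 (1.38).

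The pattern of the lead region over the 16 pools was compared with that of the other 18442 regions present in all lists. All values are from the same libraries, scaled to tags and centred, so the correlations are a description. The 5 most alike were on chromosome 18, 68650572 to 68651869 (Pearson r = 0.964), chromosome 7, 105495896 to 105496844 (0.958), chromosome 8, 108832171 to 108832690 (0.956), chromosome 19, 21888720 to 21889698 (0.956) and chromosome 4, 62437855 to 62440268 (0.955). Among the regions of the window present in all lists, the most alike was the −47.1 kb region, ranked 34 (0.914). Next were the −11.2 kb region, ranked 48 (0.893), and the −113 kb region, ranked 135 (0.827). The −3.61 kb region, nearest the lead region, had a peak in 15 lists and was not compared. The strong −136 kb region was at rank 4646 (0.165).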

How the data were processed

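DNase-seq peak lists of 16 liver pools were used as the authors deposited them. Reads of 50 bp, from fragments of 125 to 400 bp, were aligned to mm9 with Bowtie (version not given in the sources used here), per the submitters' processing notes and labels. Peaks were called per pool with MACS 2.1.0.20150731, with no control and all duplicates kept, per the file headers. The headers also give a shift of 100 bp, whose sign was not kept here, an extension to 200 bp and a q-value cutoff of 0.05. Per the labels' protocols, only the first read of the 27 h libraries was used. The deposited pileup is a signal not scaled to depth, the deposited fold enrichment is a ratio to the local background, and −log10 q was used only to filter peaks within a list; all 3 are the authors' values. Each list lacks 1.12% to 1.62% of its peak numbers, so some called peaks are not in the lists used here, for a reason that no header gives; none is missing inside the window. One list carries the code of another experiment in its heading; its command line and peak names give its own, which was used.

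Overlapping peaks (at least 1 bp) were merged over the 16 lists, and the highest pileup of a region in a pool was scaled to 1000000 tags, taken to log2 and centred on the median of regions present in all 16 lists. limma 3.58.1 in R 4.3.3 (lmFit with 8 group means, eBayes with trend) was fitted over all 61240 regions, with Benjamini-Hochberg adjustment over those tested. The fit was also run on simulated pools with independent normal noise of its own fitted spread. Such a run cannot show how the calls hold with 2 real pools per group. Pileup is no count, so no count model was used. Tags within 10 kb were recovered by inverting the fold enrichment: 509205 of 581604 peaks gave whole numbers within 0.25 in 100% of cases, and the other 12.4% sat at the genome average and gave none. Python 3.11.15, numpy 2.4.6 and pandas 2.3.3 were used. Values in every pool are given for regions called, gained or lost in at least 1 experiment, and for others that were named after their values were seen. The members and lists were chosen with earlier results of these data known. The related genes and cell type markers that had been listed need an annotation of mm9 and were not used. Equal pool numbers did not deviate together (r of −0.043 to 0.030 over 18443 regions), so pools were not paired. Precision is limited by 2 pools per group; 15679689 to 43618254 tags lie behind each list.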

Additional observations from a re-analysis of the deposited data

How the results depend on the processing

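Single regions gave 796 values under other settings. Of these, 705 stayed the same, 29 lost and 28 gained a call, 33 moved and 1 reversed. A called value stayed the same if its call and direction held. An uncalled one did if it stayed uncalled and shifted little against its standard error, whatever its direction. Uncalled values that shifted further were counted as moved, so changes of direction without a call are not among the reversed. In the reversed case, with fold enrichment, the −3.61 kb region in males at 27 h had a log2 difference of −0.15. Under fold enrichment 0 regions of the window were called higher in each experiment. Over all regions it called 11 higher in male 3 h, 16 in female 3 h, 71 in male 27 h and 40 in female 27 h livers. In males at 3 h, where 2 were called, 5 were without centring, 4 when centred on the 5000 highest regions, 4 with the fit over regions with 4 peaks in an experiment (added after seeing the data), 4 over regions in all 16 lists, and 1 with the spread of 4 libraries, without a mean trend or with the first peak of a region. Over all regions the number higher in males at 3 h moved too. Against 92, it was 340 without centring, 163 with the added fit and 149 over regions in all 16 lists. It was 14 with the spread of 4 libraries, 34 without a mean trend and 51 with the first peak. Centring on the 5000 highest regions gave 2 in females at 3 h, where all regions went from 193 to 403. The spread of 4 libraries gave 8 in males at 27 h, where all regions went from 418 to 993. Leaving out a pool gave 1 to 2 in males at 3 h (1 without TCPOBOP pool 1) and 3 to 6 in females at 27 h (3 without either TCPOBOP pool). With a replicate block 4 were called in males and 1 in females at 3 h, and 4 in males and 6 in females at 27 h. Over all regions the block called 189 higher in males and 297 in females at 3 h, and 635 and 984 at 27 h.

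Without centring, the median log2 difference of all regions was 0.15 in male 3 h and 0.11 in male 27 h livers, against −0.03 and −0.01 with it. Over all regions, centring on the 5000 highest gave 223 higher and 145 lower in males at 3 h, against 92 and 15, and 662 and 305 in males at 27 h, against 418 and 72; without centring, females at 27 h had 922 and 340, against 809 and 556.

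Between vehicle livers at 3 h, 0 regions were called higher in females without centring and 2 with absent peaks at the lowest pileup; leaving out a pool gave 0 to 1. At 27 h 1 was called lower with absent peaks at the lowest pileup, and leaving out a pool gave 0 to 1 lower and 0 to 1 higher. With absent peaks at the lowest pileup 1 difference of effect by time in females was called. Gained regions in females at 3 h numbered 2 at −log10 q of at least 5 and 2 at equal list length, and 1 to 2 when a pool was left out. At 27 h, males had 1 among the 20000 highest peaks and 1 at equal length, and 0 to 2 without a pool; females had 1, 1 and 2 under the 3 thresholds, and 1 to 6 without a pool. Lost regions numbered 0 to 1 without a pool in male 3 h, female 3 h and male 27 h livers. The causes were not tested. A peak list gives no signal where it holds no peak, so a pool without a peak has no value and regions weak in vehicle livers were not tested.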
